A study of Mus musculus with 7 samples.

Results

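The secreted and membrane proteases that cut the extracellular matrix, and the tissue inhibitors that hold them in check, were followed in pancreatic islets of pregnant mice. The set was taken by gene symbol: the matrix metalloproteinases (Mmp with a number), all genes whose symbol starts with Adamts, and Timp1 to Timp4. Of 19938 genes with a probe set of their own on the array, 49 met this rule, namely 22 MMP, 18 ADAMTS, 5 ADAMTS-like and 4 TIMP genes. Mmp15 and Adamts2, which would also meet it, were not analysed here. Islets came from 4 female mice heterozygous for a prolactin receptor null allele (PrlR+/-) and 3 wild type females (PrlR+/+), all of C57BL/6 strain background. Timed matings were set up when the females were 12 to 16 weeks old, and islets were taken on day 15 of pregnancy for 1 Affymetrix array per sample. The labels name no tissue-restricted promoter or Cre, call the PrlR+/+ animals wild types of the null line, and do not say whether the groups were littermates. Sample codes in the labels differ in their letters between the genotypes with no meaning given, and any source or batch they mark cannot be told apart from genotype. Nor do they say whether a sample held the islets of 1 mouse or of several, so samples are called mice here for short, and p-values measure the spread between these samples. The level of the targeted receptor gene was not analysed here and gives no check of the genotypes.

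Matrix metalloproteinases are zinc enzymes made as inactive precursors, which are switched on when their propeptide is removed. Between them they cut collagens, gelatin, laminins and many cell surface proteins. ADAMTS enzymes are secreted relatives with thrombospondin repeats that trim proteoglycans, process procollagens or cleave von Willebrand factor, while ADAMTS-like proteins keep the repeats but lack the catalytic domain. TIMPs bind the active site of these enzymes. In islets such proteases act on the basement membrane around capillaries and on the matrix at the islet edge. Beta cells enlarge their mass in pregnancy under prolactin and placental lactogens, which act through the prolactin receptor.

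The deposited values were log2 probe set signals, and medians over all genes lay between 7.34 and 7.37 on the 7 arrays. The mean of 8 beta cell markers was 11.894 to 12.121 on the PrlR+/- arrays, against 12.045 to 12.170 on the PrlR+/+ arrays. Markers of exocrine acinar cells were also bright, with list means over 10 genes of 11.617 to 12.187 in PrlR+/- and 11.494 to 11.915 in PrlR+/+ islets. Arrays also stood apart in other ways. The lower quartile of genes was 5.82 on PrlR+/- 4 and between 5.62 and 5.73 on the others. The median of probe sets not listed with a gene was 5.94 on PrlR+/- 2, 5.95 on PrlR+/+ 1 and 5.92 on PrlR+/+ 3, and between 5.64 and 5.78 on the remaining arrays.

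With the brightest probe set standing for each gene, a pair of inhibitors and some ADAMTS enzymes gave the brightest signals. Most of the family was dim. Probe sets differ in how well they bind their target, so the order given here is one of signals and not of transcript numbers. The median gene on the array had a mean of 7.36, and 43 of the 49 genes lay below it. In 16 of them the mean was under 5.71, the lower quartile of all genes. Timp3 stood at the top with a mean over the 7 mice of 11.12, at the 96.2 percentile of all genes, followed by Timp2 at 8.86, Adamts17 at 8.81 and Adamts9 at 8.35. Mmp24 (7.64) and Adamts1 (7.45) were the only others above the median gene. Adamts17 and Adamts9 were placed by the brightest of 5 and 6 probe sets, whose means went down to 5.78 and 6.00. Timp3, Timp2, Mmp24 and Adamts1 had 1 probe set each, so the high places of Adamts17 and Adamts9 rest in part on that choice. Of 48 neighbouring pairs in the order, 11 were ranked the same way in all 7 mice. Timp2 and Adamts17, for example, changed places between mice, with Timp2 brighter in 3 of 7, while Timp3 was brighter than Timp2 in every mouse.

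**Figure D1:**
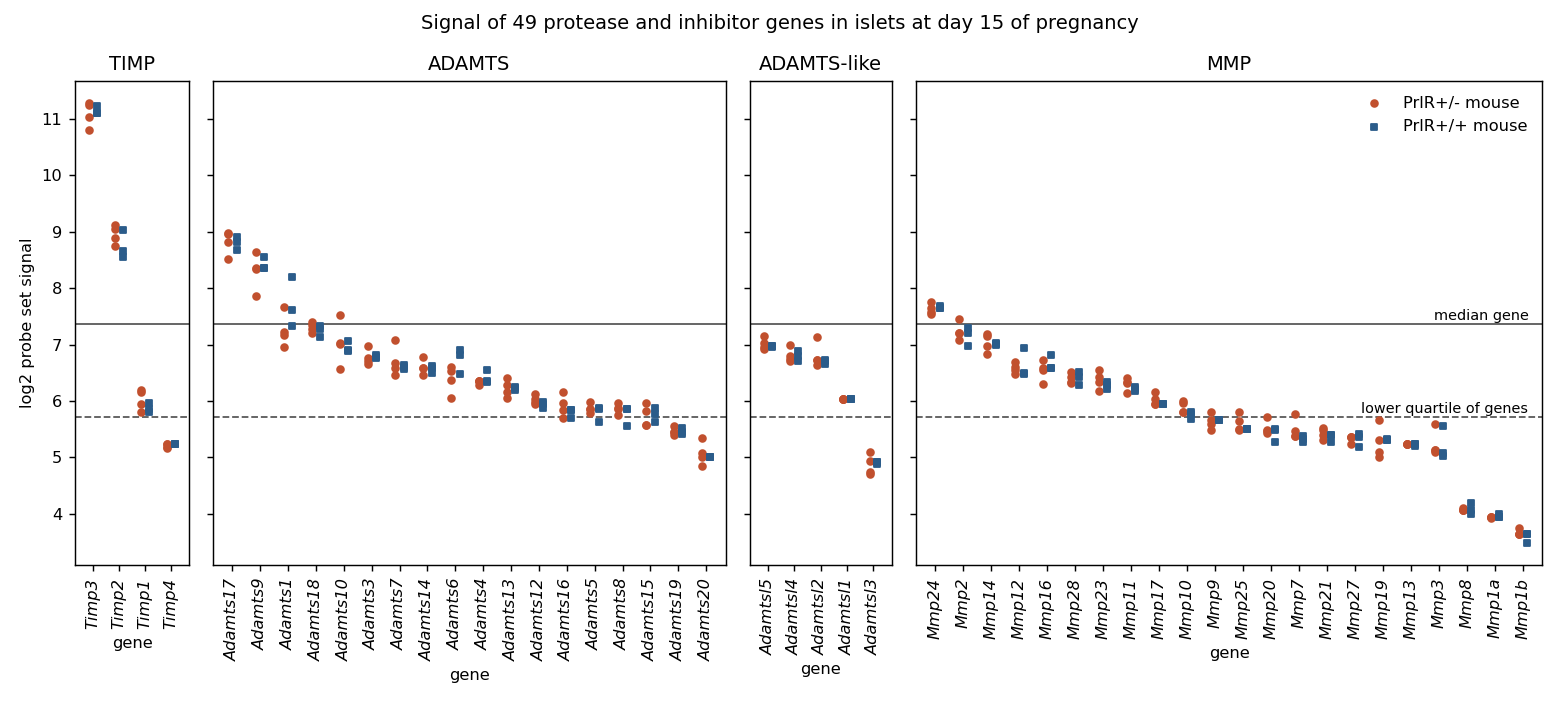
Log2 probe set signal (y axis) of each gene (x axis), in 4 panels by family; each red circle is a PrlR+/- mouse and each blue square a PrlR+/+ mouse, the solid line is the mean of the median gene (7.36) and the dashed line the lower quartile of genes (5.71). Timp3 and Timp2 stand high, 6 genes have means above the solid line, and the symbols of the genotypes lie among each other for nearly every gene.

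Setting PrlR+/- against PrlR+/+ islets asked whether a reduced receptor gene dose goes with other levels of these proteases and inhibitors in pregnancy. No gene of the set passed. By limma over all 19938 genes with Benjamini-Hochberg adjustment, 0 of the 49 had an adjusted p under 0.05, and the smallest adjusted p was 0.99. The test called 0 genes in all (0%). At an unadjusted p under 0.05 there were 0 of 49, against 2.2% of all genes (1.07% higher and 1.13% lower in PrlR+/- islets). Means were higher in PrlR+/- islets for 31 genes and lower for 18, against 55.7% of all genes with higher means. The median log2 difference, PrlR+/- minus PrlR+/+, was 0.02 over the set and 0.01 over all genes. For 47 of the 49 the 95% interval of the difference lay within 1.5-fold in both directions, against 89.9% of all genes. The exceptions were Adamts1 and Adamts6. Dim probe sets can understate a change in transcripts, so these intervals apply to the signals. In bulk islets, fewer cells of a type and less RNA per cell cannot be told apart.

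**Figure D2:**
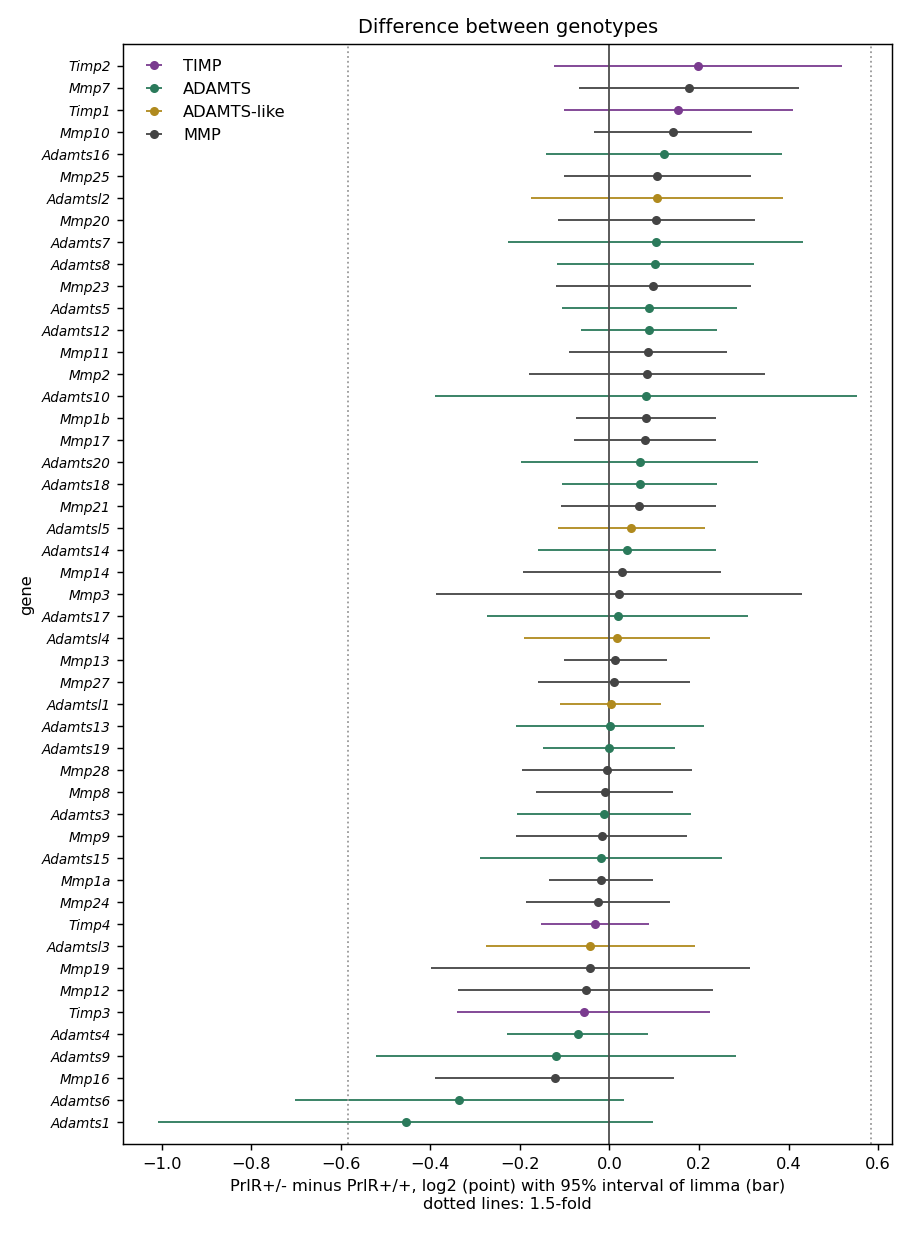
Difference of PrlR+/- minus PrlR+/+ on the log2 scale (x axis) for each of the 49 genes (y axis), coloured by family; points are limma estimates from 4 against 3 mice, bars their 95% intervals, and dotted lines mark 1.5-fold. Every interval includes 0, and those of Adamts1 and Adamts6 are the 2 that reach beyond 1.5-fold.

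The inhibitors came in a bright and a dim pair. Timp3 (probe set 10365482) binds to matrix and also blocks the sheddase ADAM17 and several ADAMTS enzymes. Its log2 values were 10.81, 11.25, 11.03 and 11.28 in PrlR+/- mice 1 to 4, against 11.11, 11.23 and 11.11 in PrlR+/+ mice 1 to 3. The PrlR+/- mice held both the highest and the lowest value, and the difference was -0.06 ± 0.12 (limma's moderated SE; 95% interval -0.34 to 0.22). Timp2 (probe set 10393559), which inhibits MMPs and, together with MMP14, presents the MMP2 precursor for activation, had values of 9.04, 8.74, 9.12 and 8.89 in PrlR+/- mice. In PrlR+/+ mice it had 8.56, 9.03 and 8.66. Its groups overlapped through PrlR+/+ 2, which lay with the high PrlR+/- mice, and the difference of 0.20 ± 0.14 was the most positive of the set (unadjusted p = 0.191, adjusted p = 0.99 by limma).

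The low values of Timp2, 8.56, 8.66 and 8.74, came from the arrays on which the probe sets not listed with a gene were brightest, PrlR+/+ 1, PrlR+/+ 3 and PrlR+/- 2. Among those arrays the PrlR+/- mouse was 0.13 above the mean of the PrlR+/+ mice. Among the other arrays the mean of 3 PrlR+/- mice was -0.01 relative to PrlR+/+ 2. A fit with the median of those probe sets as a covariate, which was added with the values known, gave a difference of 0.10. Bright unlisted probe sets fell on 1 PrlR+/- and 2 PrlR+/+ arrays, and the other arrays were 3 PrlR+/- and 1 PrlR+/+. With this uneven split, brightness can be told apart from genotype only in part. Beyond this fit and the differences given within each group of arrays, its part in the values of Timp2, Adamts1 and Adamts6 was not tested.

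Timp1, a soluble inhibitor inducible by cytokines (probe set 10598976), was dim, with 6.16, 5.95, 5.80 and 6.20 in PrlR+/- mice and 5.80, 5.97 and 5.85 in PrlR+/+ mice. PrlR+/- 1 and PrlR+/- 4 lay above all PrlR+/+ mice and the others within their range, a difference of 0.15 ± 0.11. Without PrlR+/- 4 the Timp1 difference was 0.0967, and without PrlR+/- 3 it was 0.23. Timp4, an inhibitor best known from heart and fat (probe set 10547022), had 5.18, 5.24, 5.17 and 5.24 in PrlR+/- mice and 5.24 in each PrlR+/+ mouse. The same value on 5 arrays leaves little to compare. Equal values on 3 or more arrays were found for 23 of the 49 genes and for 34.5% of all genes, and among genes below the median gene for 21 of 43 members and 50.6%.

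**Figure D3:**
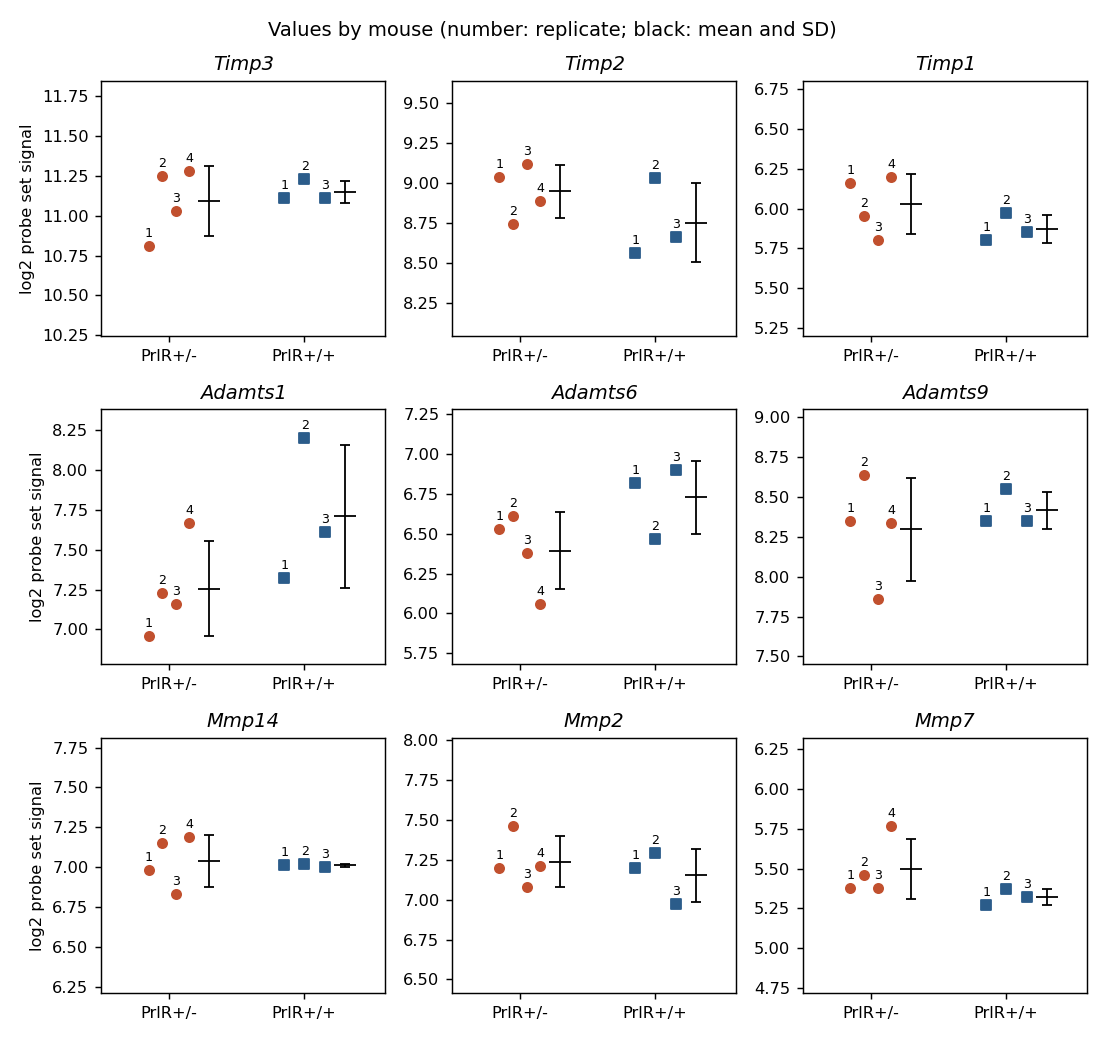
Log2 probe set signal (y axis, spanning 1.6 in each panel) by genotype (x axis) for 9 genes; red circles are PrlR+/- mice and blue squares PrlR+/+ mice, numbered by replicate, and black marks show the mean and SD. Timp2 and Adamts1 overlap through 1 mouse or more of each genotype, and the nearest Mmp7 values of the genotypes are 5.38 and 5.37.

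Adamts1 and Adamts6 had the most negative differences of the set, and neither passed. Adamts1, a proteoglycan-cleaving enzyme that is induced by inflammatory and hormonal signals (probe set 10440522), had log2 values of 6.96, 7.23, 7.16 and 7.67 in PrlR+/- mice. In PrlR+/+ mice the values were 7.32, 8.20 and 7.61. PrlR+/+ 2 stood above all others, while PrlR+/- 4 lay above PrlR+/+ 1 and PrlR+/+ 3. Adamts1 averaged 7.26 ± 0.30 over the 4 PrlR+/- mice, against 7.71 ± 0.45 over the 3 PrlR+/+ mice (mean ± SD), a difference of -0.455 ± 0.24 (limma, adjusted p = 0.99). The range over the mice was 1.24, the widest of the 49 genes. Without PrlR+/+ 2 the difference was -0.21. Among the arrays with bright unlisted probe sets it was -0.235, and among the others, where PrlR+/+ 2 was the only PrlR+/+ mouse, -0.94.

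Adamts6 (probe set 10406982), an enzyme linked to the microfibrils of elastic tissue, had 6.53, 6.61, 6.38 and 6.06 in PrlR+/- mice, against 6.82, 6.47 and 6.90 in PrlR+/+ mice. PrlR+/+ 2 lay within the PrlR+/- range and the other PrlR+/+ mice above it. The difference was -0.335 ± 0.16 (95% interval -0.70 to 0.03; unadjusted p = 0.0687, adjusted p = 0.99 by limma), the smallest unadjusted p of the set. Its 3 highest values came from PrlR+/- 2, PrlR+/+ 1 and PrlR+/+ 3, the same arrays on which the unlisted probe sets were brightest. Among those arrays the difference was -0.25 and among the others -0.15.

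The brightest ADAMTS enzymes varied between mice without following the genotype. Adamts17, linked to fibrillin microfibrils (probe set 10554057), had 8.82, 8.97, 8.51 and 8.96 in PrlR+/- mice and 8.82, 8.67 and 8.90 in PrlR+/+ mice. Its difference was 0.02 ± 0.12. Adamts9, which cleaves versican and aggrecan (probe set 10546430), had 8.35, 8.64, 7.86 and 8.34 in PrlR+/- mice, against 8.35, 8.55 and 8.35 in PrlR+/+ mice. PrlR+/- 3 stood low and PrlR+/- 2 high, with the PrlR+/+ mice between them, and the difference was -0.12 ± 0.17. Adamts10, another microfibril-associated member, showed the same mice at its ends, with 7.01, 7.53, 6.57 and 7.02 in PrlR+/- mice and 7.06, 6.89 and 6.90 in PrlR+/+ mice (0.08 ± 0.20). Adamts18 was narrower, from 7.21 to 7.40 in PrlR+/- and from 7.13 to 7.32 in PrlR+/+ mice (0.07 ± 0.07).

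The classical aggrecanases were dim. Adamts4 (probe set 10351551) had 6.36, 6.36, 6.29 and 6.36 in PrlR+/- mice and 6.34, 6.54 and 6.36 in PrlR+/+ mice, a difference of -0.07 ± 0.07. Adamts5 (probe set 10440534) had 5.86, 5.86, 5.79 and 5.98 in PrlR+/- mice and 5.86, 5.87 and 5.62 in PrlR+/+ mice, a difference of 0.09 ± 0.08. The groups overlapped for both genes. Adamts13, the enzyme that cleaves von Willebrand factor (probe set 10470349), had 6.16, 6.40, 6.05 and 6.29 in PrlR+/- mice, against 6.19, 6.25 and 6.23 in PrlR+/+ mice, with a difference of 0.00 ± 0.09. The other 9 ADAMTS enzymes had means between 5.04 for Adamts20 and 6.78 for Adamts3, a procollagen N-proteinase. They included Adamts14 (6.59), also a procollagen N-proteinase, and Adamts7 (6.66) and Adamts12 (5.98), which cleave cartilage oligomeric matrix protein. Across all 18 the median difference was 0.03, with higher means in PrlR+/- islets for 11 and lower for 7.

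The 5 ADAMTS-like genes were dim as well. Means over the 7 mice were 6.99 for Adamtsl5, 6.80 for Adamtsl4, 6.75 for Adamtsl2, 6.04 for Adamtsl1 and 4.89 for Adamtsl3. Adamtsl2, which binds latent TGF-beta binding protein and microfibrils (probe set 10470392), had 6.63, 7.13, 6.72 and 6.72 in PrlR+/- mice and 6.70, 6.72 and 6.66 in PrlR+/+ mice. PrlR+/- 2 stood above all other mice, and the difference over all mice was 0.11 ± 0.12. Adamtsl1 was at 6.04 on 6 arrays and 6.03 on the other.

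Among the MMPs, Mmp24, Mmp2 and Mmp14 were brightest. Mmp24, a membrane-type enzyme known from neurons (probe set 10477725), had 7.57, 7.64, 7.76 and 7.54 in PrlR+/- mice and 7.68, 7.64 and 7.64 in PrlR+/+ mice, a difference of -0.03 ± 0.07. Mmp14 (probe set 10415052), the membrane-type collagenase that activates MMP2, had 6.98, 7.15, 6.83 and 7.19 in PrlR+/- mice, against 7.01, 7.02 and 7.0 in PrlR+/+ mice. The PrlR+/+ values lay close together and inside the PrlR+/- range, and the difference was 0.03 ± 0.09. Mmp2, gelatinase A (probe set 10573924), had 7.20, 7.46, 7.08 and 7.21 in PrlR+/- mice and 7.20, 7.29 and 6.97 in PrlR+/+ mice (0.08 ± 0.11). PrlR+/- 2 was the highest mouse and PrlR+/+ 3 the lowest. Mmp9, gelatinase B of neutrophils and macrophages (probe set 10478633), was dim, with 5.60, 5.67, 5.49 and 5.81 in PrlR+/- mice and 5.66 in each PrlR+/+ mouse, a difference of -0.02 ± 0.08. Mmp16, a further membrane-type enzyme, differed by -0.12 ± 0.11. Its difference was -0.0425 without PrlR+/+ 3, -0.0433 without PrlR+/- 2 and 0.0148 with a mean of stellate cell markers as a covariate.

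All 10 MMP genes of chromosome 9 on the array were at or below a mean of 6.60, and 8 of them lay below the lower quartile of genes. In the RefSeq gene table (GRCm38.p6) they stand side by side in the order Mmp13, Mmp12, Mmp1b, Mmp3, Mmp1a, Mmp10, Mmp8, Mmp27, Mmp20 and Mmp7, with 0 other protein-coding genes between them. They encode collagenases (Mmp1a, Mmp1b, Mmp8, Mmp13), stromelysins (Mmp3, Mmp10), the macrophage elastase Mmp12, matrilysin (Mmp7) and the enamel protease Mmp20. Promoters of this cluster are known for a binding site of AP-1, the Fos and Jun factor, close to a TATA box. Stretches of 7 of them, from RefSeq promoter windows of GRCm38.p6 covering 250 bases before to 50 after the annotated start, are shown because the genes share this layout and a low signal here. Capitals mark TGANTCA and the TATAAA that follows it, each stretch reads 5′ to 3′ on the strand of its gene, and none runs past the annotated start.
Mmp13, chr9:7272473-7272509 (+): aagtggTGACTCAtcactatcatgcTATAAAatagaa
Mmp1b, chr9:7388064-7388125 (-): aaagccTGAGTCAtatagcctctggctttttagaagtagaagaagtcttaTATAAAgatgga
Mmp3, chr9:7445770-7445821 (+): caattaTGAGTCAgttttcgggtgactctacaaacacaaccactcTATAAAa
Mmp1a, chr9:7464062-7464124 (+): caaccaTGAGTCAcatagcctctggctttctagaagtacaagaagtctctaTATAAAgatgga
Mmp10, chr9:7502273-7502324 (+): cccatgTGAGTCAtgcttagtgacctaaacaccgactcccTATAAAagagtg
Mmp20, chr9:7628130-7628184 (+): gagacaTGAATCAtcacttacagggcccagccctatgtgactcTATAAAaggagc
Mmp7, chr9:7692021-7692075 (+): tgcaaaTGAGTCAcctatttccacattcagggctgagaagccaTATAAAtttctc

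The gap between the marked motifs was 12 bases in Mmp13 and between 27 and 38 bases in the others. Mmp12 also had a TGANTCA, 44 bases before the start in 1 of its windows. The windows covered 34 of the 49 genes, namely 10 of the cluster and 24 others, and the remaining genes were not scanned. On either strand, TGANTCA occurred in 8 of the 12 windows of the cluster genes (66.7%). It occurred in 0 of 25 windows of other members, against 7.81% of all 32851 windows. TATAAA occurred in 9 of the 12 (75%) and in 3 of the 25 others (12%), against 13.6% of all windows. The letters TTCNNNGAA, the site read by STAT5 below the prolactin receptor, were found in 2 of 37 member windows (5.41%), both of Mmp23, against 8.3% of all windows. These are matches of letters in short windows, and the arrays hold no measurement of binding.

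Values of the cluster genes differed little between genotypes. Mmp7 (probe set 10583133), a small MMP of epithelial ducts and glands, was the 1 gene of the 49 whose groups did not overlap. Groups did not overlap for 2.24% of all genes, 1.03% with PrlR+/- higher, as for Mmp7, and 1.21% with PrlR+/- lower. It had 5.38, 5.46, 5.38 and 5.77 in PrlR+/- mice, against 5.27, 5.37 and 5.32 in PrlR+/+ mice. The nearest mice of the groups, at 5.38 and 5.37, were almost equal, and PrlR+/- 4 stood above the rest. The difference was 0.18 ± 0.10 (unadjusted p = 0.131, adjusted p = 0.99 by limma), and 0.09 without PrlR+/- 4. Mmp10 (probe set 10583090) had 5.80, 6.00, 5.80 and 5.97 in PrlR+/- mice and 5.77, 5.68 and 5.80 in PrlR+/+ mice. PrlR+/- 1, PrlR+/- 3 and PrlR+/+ 3 shared a value, and the difference was 0.14 ± 0.08.

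Mmp3, which activates other MMPs (probe set 10583071), had 5.13, 5.13, 5.09 and 5.60 in PrlR+/- mice, against 5.02, 5.56 and 5.07 in PrlR+/+ mice. A single mouse of each genotype was high, and the difference was 0.02 ± 0.17. Mmp13, collagenase 3 (probe set 10583044), was at 5.24 on 6 arrays and at 5.20 on PrlR+/+ 3. Mmp8, Mmp1a and Mmp1b were the dimmest of all 49, with means of 4.08, 3.95 and 3.64. Mmp1a and Mmp1b are close copies of each other, so probes of either may bind transcripts of both.

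PrlR+/- 4 gave the highest value for 25 of the 49 genes, where it did so for 29.3% of all genes. Among genes with a mean below the median gene the shares were 24 of 43 members and 42.4% of such genes. Lower quartiles of all genes were 5.82 on that array and 5.62 to 5.73 on the others. PrlR+/- 4 also had the lowest means of beta cell (11.894) and alpha cell (11.613) markers. It had the highest means of neutrophil (5.514), lymphocyte (5.909), Schwann cell and neuron (7.02), mesothelium (6.874), and lymph node and adipose (7.066) markers. For the other marker lists it was at neither end. The part of these features in the result was not tested. Without PrlR+/- 4 the median difference of the set was -0.01. The mean over all 49 genes was 6.229, 6.303, 6.156 and 6.370 in PrlR+/- mice 1 to 4 and 6.214, 6.281 and 6.239 in PrlR+/+ mice, so the PrlR+/- mice spanned the range of the PrlR+/+ mice on both sides. PrlR+/- 3, lowest by this mean, held the lowest value for 15 genes, against 18.7% of all genes.

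**Figure D4:**
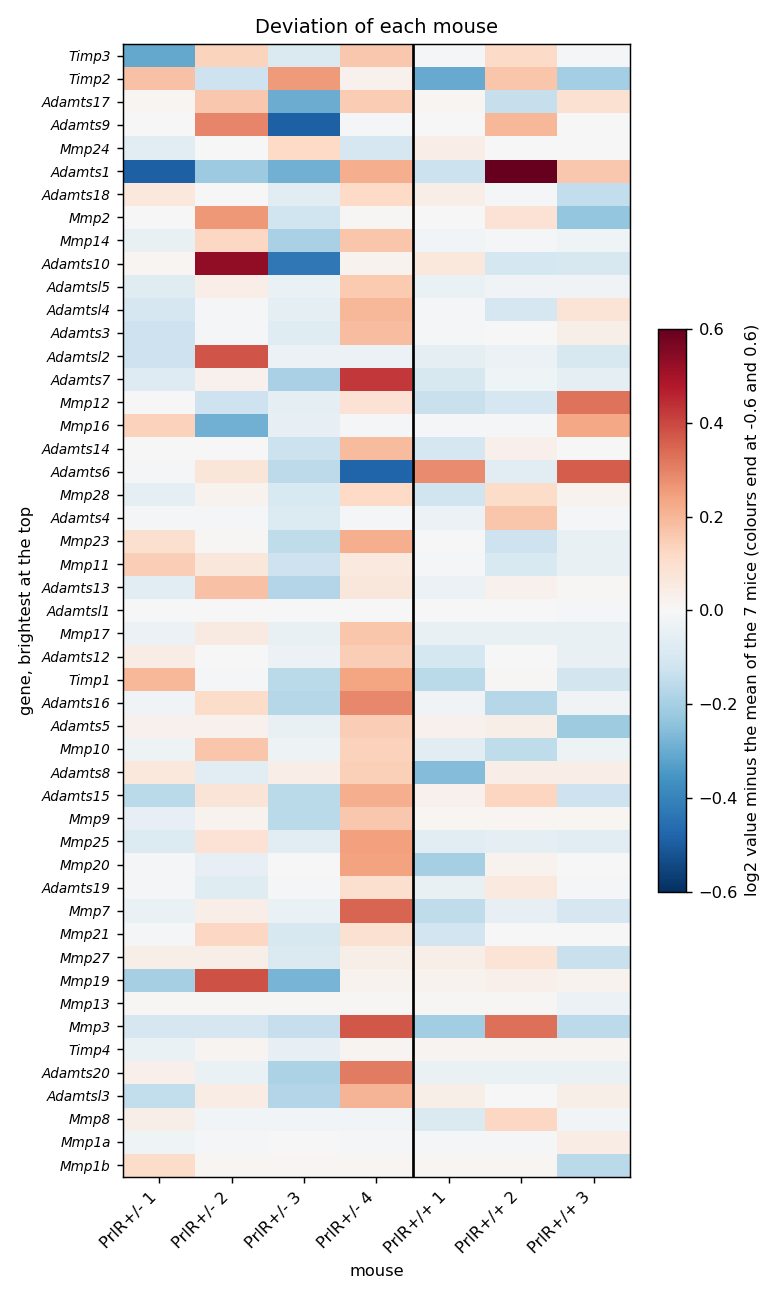
Log2 value of each mouse minus the mean of the 7 mice, as colour, for the 49 genes (rows, brightest at the top) and 7 mice (columns, PrlR+/- left of the black line and PrlR+/+ right of it). The column of PrlR+/- 4 is mostly red, and that mouse was the highest for 25 genes, while the column of PrlR+/- 3 is mostly blue.

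PrlR+/- 2 was the highest mouse for 9 of the 49 genes, against 11.8% of all genes. These were Mmp2, Mmp10, Mmp19, Mmp21, Adamts9, Adamts10, Adamts13, Adamts17 and Adamtsl2. The same mouse had the highest mean of stellate cell and fibroblast markers, 7.768 over all 12 genes listed, against 7.474 to 7.534 in the other PrlR+/- and 7.314 to 7.546 in the PrlR+/+ mice. For endothelial markers it led with 9.719 over 10 genes, against 9.368 to 9.507 in other PrlR+/- and 9.377 to 9.481 in PrlR+/+ mice. PrlR+/- 2 was also highest for acinar (12.187), alpha cell (11.85), delta cell (10.375), PP cell (11.137), duct (8.14) and macrophage (7.33) markers. It was not highest for beta cell, neutrophil, lymphocyte, Schwann cell and neuron, mesothelium, or lymph node and adipose markers. Of the marker lists, only that of Schwann cells and neurons had means that did not overlap between genotypes. These were 6.822 to 7.02 in PrlR+/- and 6.722 to 6.807 in PrlR+/+ islets. With the stellate marker mean as a covariate, the difference of Mmp2 was -0.07 in place of 0.08 and that of Adamts10 was -0.15 in place of 0.08, and neither passed in either fit. Macrophage and myeloid markers, which share cells with Mmp12 and Mmp9, averaged 7.282 to 7.330 in PrlR+/- and 7.023 to 7.308 in PrlR+/+ islets. Of these 12 genes, 9 had higher and 3 lower means in PrlR+/- islets. Lyz2 differed by 0.64 ± 0.10 (unadjusted p = 0.000291, adjusted p = 0.99 by limma), the smallest unadjusted p of all genes. Markers of other lists with an unadjusted p under 0.05 were Thy1 (0.34), Emcn (0.26), Cdh5 (0.23), Cd3d (0.18) and Msln (-0.36). Each had an adjusted p of 0.99 by limma, and 2.2% of all genes had an unadjusted p under 0.05. The 9 neutrophil markers, from cells that store Mmp8 and Mmp9, were dim, at 5.212 to 5.514 in PrlR+/- and 5.236 to 5.348 in PrlR+/+ islets. Their part in the values of those genes was not tested.

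Other genes that activate, inhibit or receive the action of these enzymes were read from 8 lists, of which 85 of 89 genes were measured. By limma 0 of the 85 passed, and 0 had an unadjusted p under 0.05, against 2.2% of all genes. Their median difference was 0.04, against 0.01 over all genes. Means were higher in PrlR+/- islets for 61, against 55.7% of all genes. PrlR+/- 2 was the highest mouse for 33 of the 85 and PrlR+/- 4 for 26, against 11.8% and 29.3% of all genes. Among 7 genes of the plasminogen system, which generates plasmin to activate MMPs, the urokinase receptor gene Plaur differed by 0.15 ± 0.12 and the plasminogen receptor gene Plgrkt by -0.13 ± 0.11 (SE). Of 14 further inhibitors and binders, 9 had higher means. The testican gene Spock1 was at 9.65, 9.26, 9.42 and 9.31 in PrlR+/- against 9.18, 9.22 and 9.32 in PrlR+/+ mice (0.17 ± 0.10), and the broad protease trap A2m differed by 0.12 ± 0.07. The 5 proprotein convertases, which include the activator furin, had a median of 0.05, with Pcsk5 at 0.07 ± 0.06 and Pcsk7 at 0.05 ± 0.07.

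Among 11 ADAM genes, membrane-bound sheddases and their inactive relatives, 5 had higher and 6 lower means, with Adam22 at -0.19 ± 0.10 and the sheddase gene Adam10 at -0.14 ± 0.08. Bmp1, the procollagen C-proteinase of the astacin family, was bright, with 11.33, 11.11, 11.34 and 11.46 in PrlR+/- and 11.37, 11.51 and 11.46 in PrlR+/+ mice (-0.14 ± 0.09), while its relative Tll1 differed by 0.14 ± 0.11. Of 9 genes for matrix molecules that ADAMTS enzymes may cut, most of them proteoglycans, 8 had higher means. Biglycan (Bgn) differed by 0.25 ± 0.16 and neurocan (Ncan) by 0.16 ± 0.10. Basement membrane genes had a median of 0.04 over 16, with the nidogen genes Nid1 and Nid2 at 0.17 ± 0.09 and 0.12 ± 0.11. For 18 interstitial and elastic fibre genes the median was 0.06, with Mfap5 at 0.15 ± 0.08 and Col5a1 at 0.13 ± 0.09. The list means of both groups of matrix genes were highest in PrlR+/- 2, at 7.749 and 7.146, against 7.372 to 7.572 and 6.698 to 7.001 in the other mice.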

How the data were processed

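The authors deposited log2 values with 2 decimals for 35556 probe sets, 1 array per sample, with 250 ng of total RNA of an integrity number above 8.5 labelled per array, per the labels' protocols. Values ran from 1.73 to 13.97, from which the scale was taken to be log2. Affymetrix Expression Console 1.2.0.20 is named in the submitters' processing notes, while the way signals were corrected, normalized and summarized is not stated there. Arrays have no read depth, and their number limits the precision.

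Gene symbols came from the annotation of the array platform; 21789 had 1 symbol, 1621 had several and 12146 were not listed. Symbols were checked through Entrez identifiers in a RefSeq table (GRCm38.p6), where 21698 matched and 0 symbols changed. The probe set with the highest mean stood for a gene that had several, which left 19938 genes. No further normalization and no filter on dim genes was applied. PrlR+/- minus PrlR+/+ was tested with limma 3.58.1 (lmFit, eBayes) under R 4.3.3; tests were 2-sided, and p-values were adjusted over all genes by the method of Benjamini and Hochberg, with a threshold of 0.05. The fit was tested on simulated data. Tables were joined with pandas 2.3.3.

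The set of genes, the lists and the tests were chosen with earlier results of these data known. Values of every mouse are given for the TIMP genes, genes at or above the 60th percentile in mean, genes with an unadjusted p under 0.05 or groups that do not overlap, the 5 genes with the largest absolute difference and 12 genes chosen by name, of which Mmp15 was not analysed here. Mmp10, Mmp16, Mmp24, Adamts10, Adamts18 and Adamtsl2 were added with their values known. Of each related list the 2 genes of smallest unadjusted p are named. Alternatives were other variance models, array weights, quantile normalization, median centring, a filter at the 40th percentile, the mean of all probe sets, stellate or acinar marker means as covariates, the replicate number as a block, and leaving out each mouse. The median of unlisted probe sets as a covariate, and the grouping of arrays by it (above or below 5.9), were added after the data were seen.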

Additional observations from a re-analysis of the deposited data

Results flagged for a closer look

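Within the 4 PrlR+/- mice, 49 genes and 4 family means were checked for a mouse far from the other 3, and 6 were found. By chance about 1 in 20 such groups is found where values are continuous and not tied. Tied values were common here, so this rate does not apply to the 6. Mmp3 was at 5.60 in PrlR+/- 4, against 5.09 to 5.13 in the other PrlR+/- mice. The mean of the 4 TIMP genes was 7.902 in PrlR+/- 4, against 7.780 to 7.797. In the other cases the remaining mice shared 1 value: Adamts4 was at 6.29 in PrlR+/- 3 against 6.36, Mmp27 at 5.24 in PrlR+/- 3 against 5.36, Mmp8 at 4.11 in PrlR+/- 1 against 4.06, and Mmp1b at 3.75 in PrlR+/- 1 against 3.65.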

How the results depend on the processing

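Over 18 alternatives limma called 0 genes in all and 0 members, and the lowest adjusted p of a member was 0.818, with array weights. Members with an unadjusted p under 0.05 were 4 with array weights (Timp1, Timp2, Adamts1 and Adamts6, where 5.68% of all genes were below it), 1 with the replicate number as a block (Adamts1), 1 with the covariate from unlisted probe sets (Mmp10) and 0 to 2 with a mouse left out. Groups did not overlap for 2 members after quantile normalization and for 0 after median centring. The count was 0 with the filter at the 40th percentile, which keeps 15 members, and 1 to 5 with a mouse left out. It was 4 without PrlR+/- 3 and 5 without PrlR+/+ 2. Smaller groups separate more often by chance, so counts with a mouse left out cannot be set beside those of all mice. Except for the 5.68% with array weights, shares of all genes for these counts of members are not given here. With the mean of all probe sets 2 members in place of 4 lay at or above the 60th percentile. The median difference of 0.02 ranged from -0.0067 without PrlR+/- 4 to 0.07 without PrlR+/- 3, and was -0.0067 with the replicate block.

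Differences turned sign under at least 1 alternative for 27 of the 49 genes and under none for 22. Of the 87 reversals, 44 did not come from leaving out a mouse. Values follow only for the genes whose differences are printed in the results, and other members also reversed under each of these settings. With the stellate covariate the reversed values were -0.0174 for Adamts17, -0.0748 for Mmp2, -0.0278 for Mmp14, -0.148 for Adamts10, -0.0391 for Adamtsl2, 0.0148 for Mmp16, -0.078 for Adamts13 and -0.0134 for Mmp3. The replicate block gave -0.03 for Adamts17, 0.0033 for Mmp24, -0.0233 for Mmp14, -0.02 for Adamts13 and -0.1 for Mmp3. Quantile normalization gave -0.0282 for Adamts13, -0.0112 for Mmp13 and -0.0113 for Mmp3. Adamts13 was also at -0.0145 with array weights, -0.0083 with median centring and -0.0305 with the acinar covariate, which put Adamts10 at -0.0068; array weights put Adamts17 at -0.025. The covariate from unlisted probe sets put Mmp9 at 0.0017 and Mmp3 at -0.0404. For the same genes, the ranges with a mouse left out that crossed 0 were -0.0833 to 0.237 for Adamts10, -0.0567 to 0.06 for Adamts13, -0.045 to 0.12 for Adamts17, -0.233 to 0.0267 for Adamts9, -0.0033 to 0.163 for Adamtsl2, -0.0233 to 0.0967 for Mmp14, -0.0075 to 0.153 for Mmp2, -0.07 to 0.0033 for Mmp24, -0.1 to 0.193 for Mmp3, -0.0733 to 0.0333 for Mmp9 and -0.12 to 0.0367 for Timp3. Adamts1 stayed negative, from -0.65 to -0.21, and Timp2 positive, from 0.103 to 0.338. The cause of these shifts was not tested.

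Deviations of mice with the same number correlated at 0.0896, -0.386 and -0.0287, and those of mice with different numbers at -0.238 to 0.398. So few values cannot settle whether the numbers pair the mice. Signal over background was not analysed here, which limits what can be said of the dim members.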

Other observations

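Of the 49 genes, 4 had more than 1 probe set, and in 3 of them the probe sets disagreed in level. The 16 probe sets of Adamts3 had means between 3.14 and 6.78, and their differences between genotypes ran from -0.05 to 0.21, with 11 above and 5 below 0. For Adamts9 the 6 probe sets lay between 6.00 and 8.35, with differences from -0.12 to 0.05. The 5 probe sets of Adamts17 lay between 5.78 and 8.81, with differences from -0.07 to 0.17. The 2 probe sets of Adamtsl1 were close, at 5.99 and 6.04. A gene named from its brightest probe set is therefore placed higher in the order than one averaged over its probe sets.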
